A study of Mus musculus with 8 samples.

Results

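Chemokines made by the stroma of the mouse thymus are described here across the stromal cell types of 1-week-old and 16-week-old mice. The 10 chemokine genes were chosen by name (Ccl25, Cxcl12, Ccl21a, Ccl19, Ccl22, Ccl17, Xcl1, Ccl11, Cxcl14 and Ccl20), and their rows were taken from a count table of 55487 gene identifiers by Ensembl identifier. All 10 were found and all 10 had UMIs (unique molecular identifiers, the count of captured mRNA molecules). The study used surface proteins to tell apart kinds of thymic epithelial cell (TEC), and the cells were profiled by CITEseq, in which mRNA and DNA-tagged antibodies are counted in the same cell. The animals were untreated C57BL/6 mice. At 1 week 6 thymi and at 16 weeks 3 thymi were pooled, depleted of CD45+ cells, and EpCAM1+ and EpCAM1- cells were sorted into 1 tube that was loaded on 2 wells. The 2 libraries of an age, called replicates 1 and 2, were therefore wells of 1 pool, and age was compared between single pools with no test.

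Chemokines are small secreted proteins that guide cells through G protein-coupled receptors. In the thymus they draw blood-borne progenitors in, hold immature thymocytes in the cortex, call positively selected thymocytes into the medulla and arrange dendritic cells there. CCL25 acts on CCR9 and CXCL12 on CXCR4, both carried by immature thymocytes, and CCL21 and CCL19 act on CCR7. CCL22 and CCL17 are ligands of CCR4, XCL1 of XCR1 on cross-presenting dendritic cells, CCL20 of CCR6 and CCL11 (eotaxin) of CCR3.

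The 4 libraries held 1430 to 4738 cells and 21281389 to 45480790 UMIs, with a median of 6668.5 to 8690.5 UMIs per cell, and 15 cell barcodes occurred in more than 1 library. Cells were clustered on genes that left out 65 chemokine and receptor genes, so that no member decided the class it was counted in, and were named from marker lists. In the order 1 week and 16 weeks, 1277 and 107 cells were cortical TEC (cTEC), 24 and 1735 intertypical TEC (Krt5- and Krt14-rich TEC that share features of cortical and medullary TEC, grouped with medullary TEC here), 127 and 925 mature medullary TEC (mature mTEC), 252 and 1764 fibroblasts, 156 and 93 mural cells and 63 and 255 endothelial cells. Each class held every marker of its own list in both pools. Levels are given as CPM, a gene's UMIs for every 1000000 UMIs of the class, and are compared between classes for a gene and not between genes. The 8 cTEC markers, for example, summed to 25348 and 21751 CPM in cTEC, against 518 to 4612 in the other 5 classes. The 24 intertypical TEC at 1 week were a thin sum, 19 of them from 1 small sub-cluster.

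Annotated promoters are given for the chemokines higher in cTEC than in medullary TEC (Ccl25 and Cxcl12, the latter also high in endothelium) and for a chemokine of intertypical TEC (Ccl21a). Those of a chemokine shared by medullary TEC and fibroblasts (Ccl19) and of a chemokine higher in mature mTEC than in intertypical TEC (Ccl20) follow. Which start the cells used was not measured. RefSeq entries on GRCm38.p6 were matched for 9 of the 10 genes, and Ccl25 had 2. Each line runs 5′ to 3′ on the gene's strand, from 250 bases before the start to 50 after it. Capitals mark GACGC, the core letters bound by the TEC factor FOXN1, or a κB-type sequence (GGGAA, then any 3 bases, then CC), on either strand. The motifs do not overlap each other in these windows.
Ccl25 first start, chr8:4324960-4325259, plus strand: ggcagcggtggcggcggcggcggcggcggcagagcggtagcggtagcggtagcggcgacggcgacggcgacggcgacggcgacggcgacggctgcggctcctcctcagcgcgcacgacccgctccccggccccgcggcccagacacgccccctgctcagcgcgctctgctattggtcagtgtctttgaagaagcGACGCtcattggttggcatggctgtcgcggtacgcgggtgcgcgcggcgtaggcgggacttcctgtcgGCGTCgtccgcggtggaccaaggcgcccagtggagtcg
Cxcl12, chr6:117168285-117168584, plus strand: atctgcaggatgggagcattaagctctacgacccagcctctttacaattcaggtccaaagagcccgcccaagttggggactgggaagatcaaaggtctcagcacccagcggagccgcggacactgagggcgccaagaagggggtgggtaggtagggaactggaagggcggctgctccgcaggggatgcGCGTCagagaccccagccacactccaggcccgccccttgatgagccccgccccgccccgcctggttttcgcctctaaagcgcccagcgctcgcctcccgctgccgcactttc
Ccl21a, chr4:42773942-42774241, minus strand: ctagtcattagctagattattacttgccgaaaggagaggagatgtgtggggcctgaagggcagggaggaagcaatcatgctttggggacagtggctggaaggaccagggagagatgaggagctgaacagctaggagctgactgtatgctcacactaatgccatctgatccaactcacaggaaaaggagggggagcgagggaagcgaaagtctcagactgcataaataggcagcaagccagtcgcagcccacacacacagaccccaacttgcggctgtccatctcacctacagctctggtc
Ccl19, chr4:42756316-42756615, minus strand: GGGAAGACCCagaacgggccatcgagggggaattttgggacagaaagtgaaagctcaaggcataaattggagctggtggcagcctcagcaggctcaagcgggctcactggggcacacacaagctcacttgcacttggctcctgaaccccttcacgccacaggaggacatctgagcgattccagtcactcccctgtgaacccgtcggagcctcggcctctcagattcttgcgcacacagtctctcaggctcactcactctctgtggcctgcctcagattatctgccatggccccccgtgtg
Ccl20, chr1:83116516-83116815, plus strand: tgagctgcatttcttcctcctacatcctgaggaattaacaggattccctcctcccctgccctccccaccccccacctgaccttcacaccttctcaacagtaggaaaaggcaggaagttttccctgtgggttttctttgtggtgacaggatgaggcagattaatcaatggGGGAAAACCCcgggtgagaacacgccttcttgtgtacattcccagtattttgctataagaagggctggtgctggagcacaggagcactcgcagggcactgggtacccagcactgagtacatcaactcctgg

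GACGC was found in the first Ccl25 promoter, 2 times, at -56 and 12 from the start, and in the Cxcl12 promoter at -62. None of the other 8 entries of members held it, among them the second Ccl25 start (chr8:4349338-4349637), and 27.2% of 32851 RefSeq mouse promoters of this length held it on either strand. The κB-type sequence was found in the Ccl19 promoter at -250 and the Ccl20 promoter at -81, and in 5.80% of all promoters. These matches are letters in a window and not measured sites. The genes themselves lay on 6 chromosomes (GRCm38), with Ccl22 and Ccl17 58.8 kb apart on chromosome 8, and Ccl19 and Ccl21a 16.3 kb apart on chromosome 4. Ccl21b, a near-identical copy of Ccl21a, was at 0 UMIs in all cells, so that Ccl21a values are uncertain for the reads that copies share.

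The chemokines led in different classes. By the mean of both pools, Ccl25 was highest in cTEC, 5.63 times the next class, mature mTEC. Cxcl12 had a high level both in endothelial cells and in cTEC, at 1545 and 1429 CPM. Ccl21a was highest in intertypical TEC, 22.0 times the next class. Ccl22, Ccl17, Xcl1 and Ccl20 were highest in mature mTEC, at 21.8, 10.7, 10.5 and 6.32 times the next class. Ccl11 and Cxcl14 were highest in fibroblasts, at 1.50 and 2.26 times intertypical TEC. The leading class of Cxcl12, Ccl19, Ccl11 and Cxcl14 was not the same at both ages, and that of the other 6 was.

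**Figure D1:**
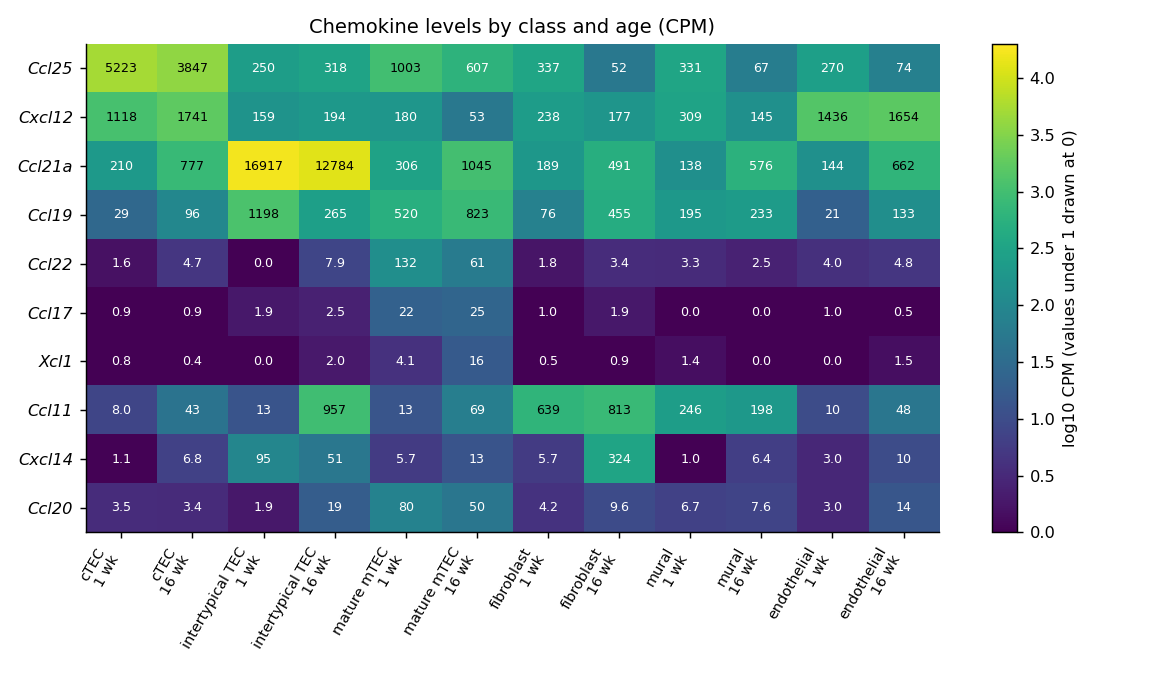
CPM of the 10 chemokines (rows) in 6 stromal classes at 1 week and 16 weeks (columns), coloured by log10 level with the level printed in each cell. Ccl25 stands out in cTEC, Ccl21a in intertypical TEC and Ccl22 and Ccl17 in mature mTEC at both ages.

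Ccl25 (ENSMUSG00000023235, chr8:4325210-4360020) attracts CCR9-bearing thymocyte precursors. In cTEC its levels were 5616 and 4685 CPM in replicates 1 and 2 at 1 week, and 2551 and 4651 at 16 weeks. Mature mTEC held 1204 and 734 at 1 week and 652 and 586 at 16 weeks. The lowest cTEC well was thus above every mature mTEC well. Intertypical TEC held 243 to 329 in the 4 wells. In fibroblasts, mural cells and endothelial cells the wells lay between 219 and 458 at 1 week and between 46.2 and 74.9 at 16 weeks.

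Cxcl12 (ENSMUSG00000061353, chr6:117168535-117181367) is the ligand of CXCR4, which cells of many kinds carry. cTEC held 1135 and 1095 CPM at 1 week and 1803 and 1702 at 16 weeks. Endothelial cells held 1966 and 942 at 1 week and 1648 and 1657 at 16 weeks, so their wells overlapped those of cTEC. Mature mTEC held 218 and 128 at 1 week and 60.9 and 48.6 at 16 weeks, and intertypical TEC 126 to 207. Fibroblasts held 170 to 278 and mural cells 136 to 328.

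Ccl21a (ENSMUSG00000094686, chr4:42772860-42773993) encodes a CCR7 ligand that draws positively selected thymocytes toward the medulla. Intertypical TEC held 17546 and 16380 CPM at 1 week and 13279 and 12546 at 16 weeks. Every intertypical well was above every well of the other classes, of which mature mTEC at 16 weeks held 936 and 1098 and cTEC at 16 weeks 487 and 957. Ccl21a was also counted in the other classes. Fibroblasts, mural cells and endothelial cells held 93.6 to 276 at 1 week and 467 to 677 at 16 weeks, and the haematopoietic cells left after depletion held 180 and 171 at 1 week and 585 and 643 at 16 weeks. Cells thinned to 2000 UMIs had a Ccl21a UMI in 98.8% of intertypical TEC and 65.1% of fibroblasts at 16 weeks, with median depths of 4883 and 11249.5 UMIs before thinning. RNA free in the droplets reaches all classes of a library, and the Ccl21a values of these 4 classes cannot be told apart from it.

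Ccl19 (ENSMUSG00000071005, chr4:42754525-42756577), the other CCR7 ligand, was spread over medullary TEC and fibroblasts. Intertypical TEC held 1354 and 1064 CPM at 1 week and 238 and 278 at 16 weeks, and mature mTEC 434 and 635, and 846 and 812. Intertypical wells were thus the higher at 1 week and mature mTEC wells at 16 weeks. Fibroblasts held 77.9 and 74.9 at 1 week and 450 and 457 at 16 weeks. Mural cells held 95.9 to 304, endothelial cells 13.6 to 169 and cTEC 28.1 to 137. Without the 12 cells of the mural sub-cluster M7 the 16-week mural level went from 233 to 116. At 16 weeks 1 cell gave 137 of the 275 UMIs of endothelial cells, and 1 cell 125 of the 225 of cTEC.

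Ccl22 (ENSMUSG00000031779, chr8:94745590-94751699) and Ccl17 (ENSMUSG00000031780, chr8:94810453-94812036), the CCR4 ligands, were low genes with 1510 and 536 UMIs in all cells. Ccl22 in mature mTEC came to 70.6 and 214 CPM at 1 week and 20.5 and 80.1 at 16 weeks, and every well of the other 5 classes was at 9.07 or less. Ccl17 in mature mTEC came to 22.6 and 20.6 at 1 week and 14.2 and 30.4 at 16 weeks, and every well of the other 5 classes was at 3.47 or less. Among these classes both genes were therefore highest in mature mTEC in all 4 wells. Few cells carried them, since Ccl22 UMIs were found in 14 of 127 cells at 1 week, where 2 cells gave 163 of 255 UMIs, and in 98 of 925 at 16 weeks, where 1 cell gave 163 of 563. Ccl17 UMIs were found in 10 and 65 cells, and 2 cells gave 29 of 42 UMIs at 1 week.

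Xcl1 (ENSMUSG00000026573, chr1:164931644-164935527), which attracts XCR1+ dendritic cells, had 311 UMIs in all cells. Mature mTEC held 0.90 and 8.47 CPM at 1 week and 4.64 and 22.1 at 16 weeks, so that its wells of 1 age differed more than its ages did. At 16 weeks 26 of 925 cells held an Xcl1 UMI, and 104 of the 152 UMIs came from 1 cell. Its counts were too low for the test across genes. Ccl20 (ENSMUSG00000026166, chr1:83116766-83119167), the CCR6 ligand, came to 26.3 and 151 in mature mTEC at 1 week and 64.2 and 42.7 at 16 weeks, and 1 cell gave 85 of the 154 UMIs at 1 week. Intertypical TEC held 4.06 and 0 Ccl20 CPM at 1 week and 21.6 and 17.2 at 16 weeks, and the lowest mature mTEC well was above all of them.

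Ccl11 (ENSMUSG00000020676, chr11:82057823-82062955), the eosinophil attractant eotaxin, came to 566 and 716 CPM in fibroblasts at 1 week and 777 and 831 at 16 weeks. Mural cells held 258 and 233 at 1 week and 219 and 188 at 16 weeks. The 16-week mural value rested on the 12 cells of sub-cluster M7, without which the other 81 cells held 36 of the 156 UMIs and a level of 50.9. Intertypical TEC held 20.3 and 6.93 at 1 week, from 7 UMIs in all, and 786 and 1039 at 16 weeks. At 16 weeks the fibroblast and intertypical wells overlapped. Endothelial cells held 9.69 to 53.6, mature mTEC 9.68 to 74.3 and cTEC 7.65 to 61.4.

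Cxcl14 (ENSMUSG00000021508, chr13:56288643-56296551), a chemokine of skin and connective tissue whose receptor is not settled, came to 9.42 and 1.68 CPM in fibroblasts at 1 week and 332 and 320 at 16 weeks. Intertypical TEC held 16.2 and 163 at 1 week, from 51 UMIs of which 1 cell gave 29, and 52.3 and 50.2 at 16 weeks. Every well of the other 4 classes was at 13.6 or less.

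**Figure D2:**
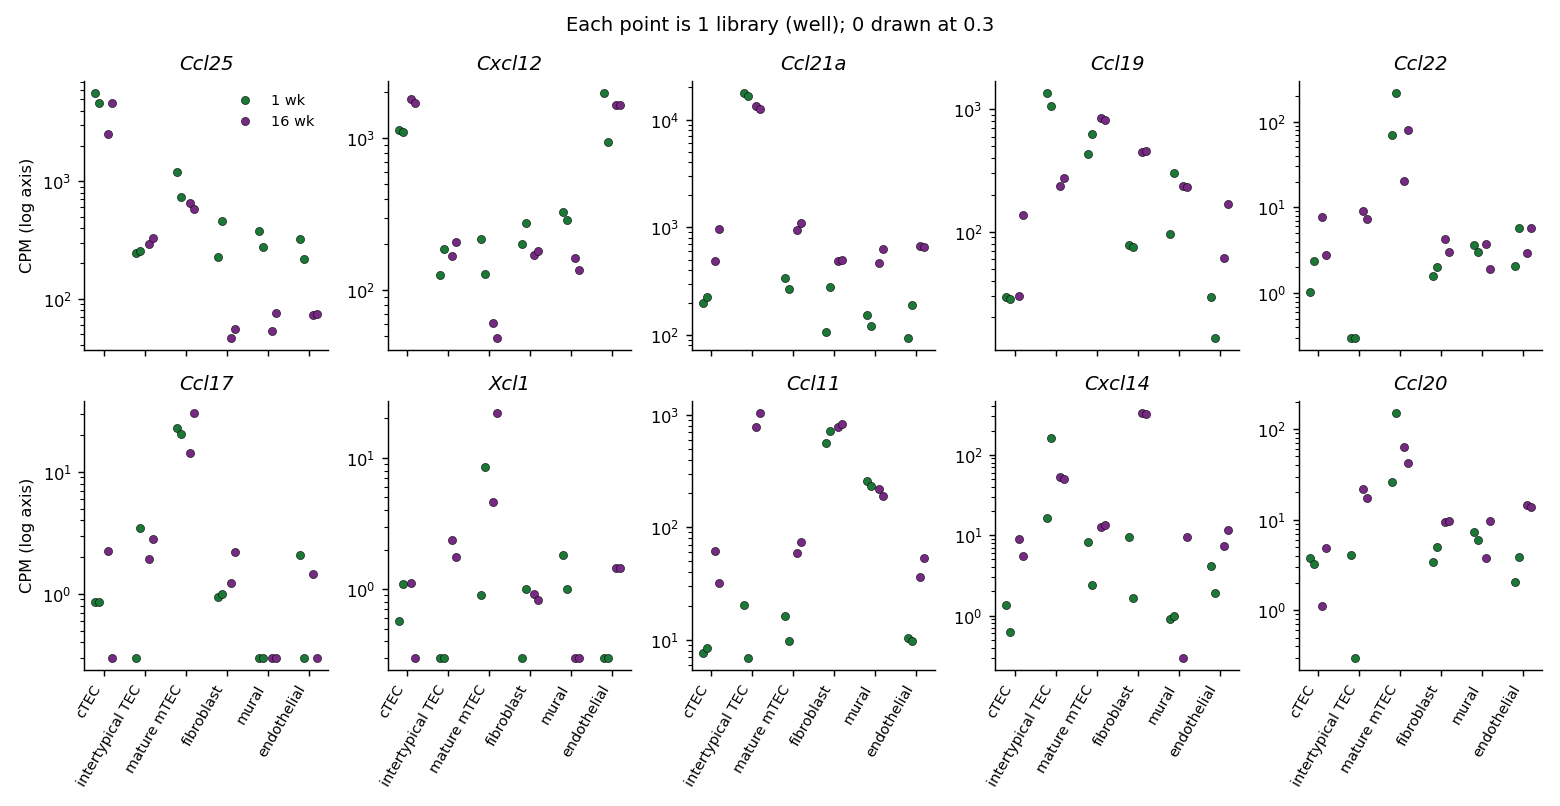
CPM (log axis, 0 drawn at 0.3) of each chemokine by class, with 1 point per library and colours for the ages. The 2 points of 1 colour are wells of 1 pool. Ccl21a wells of intertypical TEC, at 12546 to 17546, lie above all others, while Cxcl12 wells of cTEC and endothelial cells overlap.

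Differences between classes were tested with edgeR's quasi-likelihood test on counts summed per pool and class, with the pool as a block and adjustment over all genes (2 pools, 15569 genes tested, 9 of the 10 members among them). Each age was 1 pool, so that p-values cover the spread of class sums between 2 pools and not between mice. Between cTEC and medullary TEC (the mean of intertypical TEC and mature mTEC), 7 of the 9 members passed an adjusted p of 0.05, against 24.7% of all genes tested. Ccl25 and Cxcl12 were higher in cTEC, and Ccl21a, Ccl19, Ccl22, Cxcl14 and Ccl20 in medullary TEC. Ccl25 differed by 3.27 ± 0.47 (log2 ± SE, adjusted p = 0.00127), which is 9.66-fold. Cxcl12 differed by 3.56 ± 0.66 (adjusted p = 0.00338), which is 11.8-fold. Both were higher in cTEC in each of the 4 wells. The medullary chemokine Ccl21a differed by -2.88 ± 0.47 (adjusted p = 0.00222), and Ccl19 by -3.78 ± 0.83 (adjusted p = 0.00776). When 1 library was left out, Ccl21a ranged from -3.31 to -2.06 and Ccl19 from -4.61 to -2.47.

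Of the low medullary genes, Ccl22 differed between cTEC and medullary TEC by -3.13 ± 0.64 (adjusted p = 0.00540), Ccl20 by -2.63 ± 0.68 (adjusted p = 0.0153) and Cxcl14 by -3.18 ± 1.05 (adjusted p = 0.0424). Ccl11 at -2.19 ± 0.88 (adjusted p = 0.0872) and Ccl17 at -2.38 ± 1.12 (adjusted p = 0.141) did not pass, but Ccl11 was called in 9 of 17 alternatives (adjusted p over the 17 up to 0.221), among them DESeq2 (adjusted p = 0.0362), and Ccl17 in 4 of 16 (up to 0.322). The Cxcl14 call was lost in 10 of 17 alternatives, and the Ccl21a call with no block (-2.61, adjusted p = 0.0746) and with no batch correction before clustering (-0.67, adjusted p = 0.541, the highest over the 17). With no batch correction the Ccl19 call was lost too (adjusted p = 0.0525). The Ccl20 and Ccl22 calls were lost without replicate 2 of 16 weeks at differences of -2.83 (adjusted p = 0.0505) and -3.09 (adjusted p = 0.0547), and that of Ccl22 also with the chemokine genes kept in the clustering (-1.72, adjusted p = 0.0706, the highest over its 17). The median over the 9 members was -2.63, and over all genes 0.06.

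Within the medulla, mature mTEC were set against intertypical TEC, and 4 of 9 members passed, against 19.5% of all genes. Ccl21a was lower in mature mTEC (-5.03 ± 0.56 on the log2 scale, adjusted p = 0.000467), which is 32.6-fold. The difference was smaller in the 16-week wells (-3.83 and -3.51) than in the 1-week wells (-5.71 and -5.94). With 1 library left out it ranged from -5.00 to -3.46. Ccl22 was higher by 4.10 ± 0.70 (adjusted p = 0.00283) and Ccl20 by 2.71 ± 0.77 (adjusted p = 0.0265). Ccl11 was lower (-3.11 ± 1.00, adjusted p = 0.0443), with differences of -3.73 and -3.80 in the wells of 16 weeks and of -0.41 and 0.25 in those of 1 week. Cxcl14 at -3.61 ± 1.20 (adjusted p = 0.0521), Ccl17 at 3.78 ± 1.35 (adjusted p = 0.0695) and Ccl25 at 1.20 ± 0.57 (adjusted p = 0.158) did not pass, nor did Cxcl12 at -0.91 ± 0.80 (adjusted p = 0.461) and Ccl19 at -0.55 ± 0.79 (adjusted p = 0.681). Of these, Ccl17 was called in 5 alternatives and Cxcl14 in 3, DESeq2 among both (adjusted p = 0.0468 and 0.00861), Ccl25 in 4 and Cxcl12 in 1. Ccl19 was called in 2, in the other direction, at 2.09 with shallow clusters kept (adjusted p = 0.0464) and 2.19 without replicate 2 of 1 week (adjusted p = 0.0183), both with the 1-week intertypical sum missing, and the highest adjusted p over its 16 was 0.999. The Ccl22 call was lost with the chemokine genes kept in the clustering, where the difference was 2.03 (adjusted p = 0.0598, the highest over its 16). The Ccl20 call was lost in 5 of 16 alternatives and the Ccl11 call in 7, and without replicate 2 of 16 weeks both were lost. Without either 1-week library fewer than 20 intertypical TEC remained at that age, so that this contrast then rested on the 16-week sum alone.

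Scaling bore on these contrasts. DESeq2's size factors moved the median of all genes by -0.20 in the cTEC contrast and 0.18 in the contrast within the medulla, and the share of calls that were higher in the first class went from 52.4% to 33.2% and from 61.1% to 73.3%. Among the members, the calls that were lost under these size factors were that of Ccl11 within the medulla and no other.

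Mesenchyme (the mean of fibroblasts and mural cells) was set against TEC (the mean of the 3 classes), and 4 of 9 members passed, against 37.4% of all genes. Ccl11 was higher in mesenchyme (3.37 ± 0.63 on the log2 scale, adjusted p = 0.00109), by 4.75 and 5.49 in the 1-week wells and 1.54 and 1.55 in the 16-week wells. The fitted difference ranged from 2.64 to 3.40 when 1 library was left out. Without the mural sub-cluster M7 the 16-week wells stood at 0.61 and 0.56 and the fitted difference at 3.21 (adjusted p = 0.00576). The call was lost with no block (2.48, adjusted p = 0.0525, the highest over its 17). Ccl25 (-2.74 ± 0.42, adjusted p = 0.000232), Ccl21a (-2.33 ± 0.33, adjusted p = 0.000147) and Ccl22 (-1.83 ± 0.50, adjusted p = 0.0114) were lower. Their ranges with 1 library left out were -3.35 to -2.75, -2.37 to -1.72 and -2.24 to -1.73. Cxcl14 at 0.39 ± 1.01 (adjusted p = 0.797), Cxcl12 at -0.44 ± 0.51 (adjusted p = 0.528) and Ccl19 at -0.44 ± 0.52 (adjusted p = 0.535) did not pass, nor did Ccl17 at -4.26 ± 1.92 (adjusted p = 0.103) and Ccl20 at -0.96 ± 0.50 (adjusted p = 0.151), which were called in 4 of 16 and 5 of 17 alternatives (up to 0.164 and 0.294). The Ccl22 call was lost without replicate 2 of 16 weeks and with the chemokine genes kept in the clustering, and the share of members called lay near that of all genes.

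Endothelial cells were set against mesenchyme, and 2 of 9 members passed, against 15.4% of all genes. Cxcl12 was higher in endothelial cells (2.89 ± 0.65 on the log2 scale, adjusted p = 0.00775), in 4 of 4 wells. Ccl11 was lower (-4.56 ± 1.05, adjusted p = 0.00910), also in 4 of 4 wells, and this call was lost with no block (-3.78, adjusted p = 0.138, the highest over its 17). Ccl19 was not called, but was lower with an adjusted p under 0.05 in 7 of 17 alternatives. Ccl25 differed by -0.17 ± 0.51 and Ccl21a by 0.06 ± 0.41 (adjusted p = 0.899 and 0.974), and the part of free RNA in these values was not tested.

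**Figure D3:**
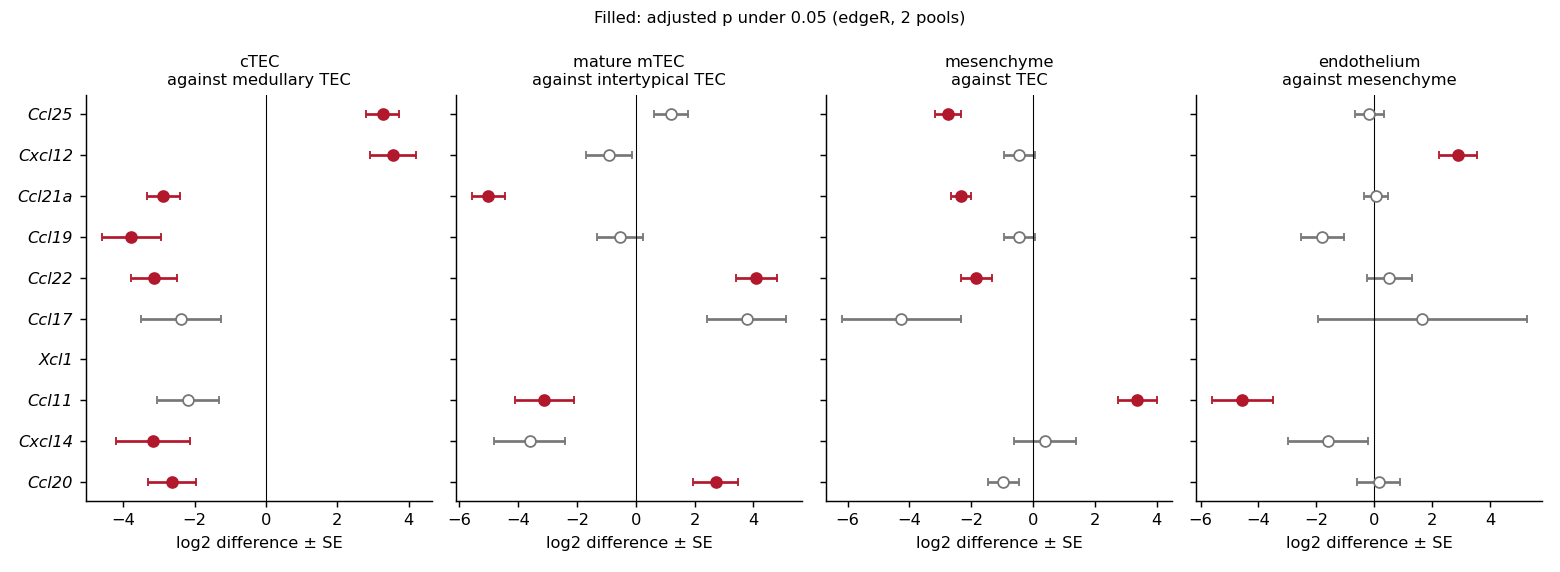
Difference (log2, first class minus second) with its standard error for 9 chemokines in 4 contrasts between classes, from edgeR on 2 pools, filled where the adjusted p was under 0.05. Xcl1 was not tested. Ccl25 and Cxcl12 lie to the right in the cTEC contrast (3.27 and 3.56) and the called medullary members to the left.

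A surface reagent that does not use RNA gave a second division of TEC. Ulex europaeus agglutinin 1 (UEA1) is a lectin that binds medullary TEC, and its tag was counted in every cell. TEC of each library were split at the limit between 2 components of the tag's distribution, and counts were summed per library for the UEA1-low and the UEA1-high cells (4 libraries, with the library as block). All 10 members passed in this fit, Xcl1 included, against 45.6% of 16718 genes. Ccl25 was higher in UEA1-low TEC (1.89 ± 0.13 on the log2 scale, adjusted p = 0.000426), as was Cxcl12 (2.27 ± 0.28, adjusted p = 0.00163). The other 8 were lower there, from -3.68 ± 0.76 for Ccl22 (adjusted p = 0.00915) to -1.17 ± 0.28 for Ccl11 (adjusted p = 0.0150).

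Per library, Ccl25 in UEA1-low TEC was 3.05 and 3.48 times its level in UEA1-high TEC at 1 week and 3.05 and 4.67 times at 16 weeks. Cxcl12 was 2.66 and 3.27 times higher at 1 week and 6.46 and 7.62 times at 16 weeks. The 4 libraries thus gave the same direction for both, as they did for each of the other 8. Wells of 1 age share a pool but count as separate samples in this fit, so that its p-values measure the spread between 4 wells and are too small as tests over 2 pools. The split did not hold the same cells at both ages. UEA1-low TEC were 81.0% and 80.9% cTEC at 1 week, while at 16 weeks they were 9.90% and 8.0% cTEC, 31.3% and 28.0% intertypical TEC, 32.2% and 38.7% cells of clusters set aside and 18.7% and 18.0% unnamed TEC. The Ccl21a ratio of UEA1-low to UEA1-high TEC was 0.17 and 0.12 at 1 week and 0.63 and 0.51 at 16 weeks.

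**Figure D4:**
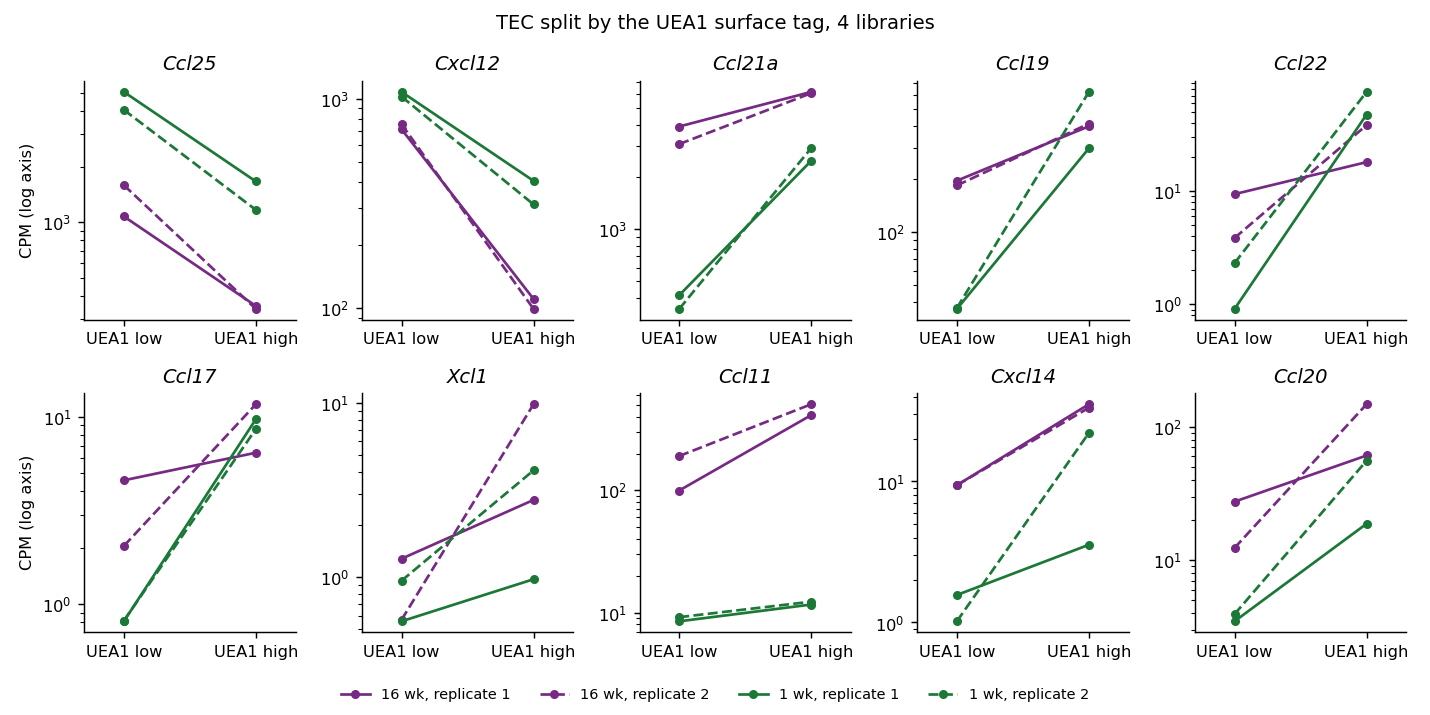
CPM (log axis) of each chemokine in UEA1-low and UEA1-high TEC, with a line per library. Lines for Ccl25 and Cxcl12 fall from low to high, the lowest ratio being 2.66, and lines for the other 8 climb.

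Ages were compared within a class by the level of each pool, and a gene was counted where it had a mean of at least 10 CPM, differed at least 2-fold and had no overlap between the wells of the ages. No p-value was computed. In cTEC 3 of 5 members counted passed this rule, against 7.52% of genes. These were Ccl21a at 210 and 777 CPM (1 week and 16 weeks), Ccl19 at 28.7 and 96.1 and Ccl11 at 7.96 and 43.1. The Ccl19 difference rested on replicate 2 of 16 weeks (1 cell gave 125 of the 225 UMIs at 16 weeks), without which its log2 value went from 1.74 to 0.071, and with cells thinned to 2000 UMIs Ccl11 went from 2.44 to 0.61, and with doublets kept to 1.46. Without replicate 2 of 16 weeks the Ccl21a value went from 1.89 to 1.22. With no batch correction before clustering the values of Ccl21a, Ccl19 and Ccl11 were 5.01, 3.38 and 3.92. Haematopoietic cells moved the same way, from 175 to 620 for Ccl21a, 36.1 to 87.0 for Ccl19 and 11.8 to 34.8 for Ccl11, and the part of free RNA in the cTEC values was not tested. Ccl25 was 1.36 times higher at 1 week and Cxcl12 1.56 times higher at 16 weeks, both short of 2-fold. The set-aside cluster T14, cTEC by its markers, is not in these values and held 95 cells at 1 week and 56 at 16 weeks. Its wells held 5135 and 3081 of Ccl25 at 1 week and 7319 and 7007 at 16 weeks. In mature mTEC 3 of 9 passed, against 6.49%. Cxcl12 stood at 180 and 52.6, 3.42 times higher at 1 week, while Ccl21a stood at 306 and 1045 and Ccl11 at 13.5 and 69.4. All 3 moved in the direction seen in haematopoietic cells, in which Cxcl12 went from 313 to 215, and the part of free RNA in them was not tested either.

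In fibroblasts 4 of 6 members passed, against 9.33% of genes. Cxcl14 stood at 5.68 and 324 CPM, a log2 difference of 5.83 with a 95% counting interval from 5.36 to 6.36. It was 7.59 without replicate 1 of 1 week and 5.10 without replicate 2, so that the wells differed by more than counting error. Ccl19 stood at 76.4 and 455, a log2 difference of 2.57 (2.44 to 2.71). Both were higher at 16 weeks in each well, whereas Ccl11 differed by 1.27-fold. Ccl25 (337 and 52.2) and Ccl21a (189 and 491) made up the rest. Without replicate 1 of 1 week the Ccl21a difference went from 1.38 to 0.83 and out of the count, and without replicate 2 to 2.19. Single cells gave 565 of the 1165 Ccl21a UMIs and 777 of the 2078 Ccl25 UMIs of 1-week fibroblasts, and without replicate 2 of 1 week the Ccl25 difference went from -2.69 to -2.10. In mural cells 3 of 5 passed, against 16.3%, with Cxcl12 at 309 and 145, Ccl25 at 331 and 67.4 and Ccl21a at 138 and 576. The Cxcl12 difference was just past 2-fold and fell out of the count without replicate 1 of 1 week (-0.99) and without replicate 2 of 16 weeks (-0.93), while without sub-cluster M7 it was -1.64 and 4 members passed. With doublets kept it was -1.74. M1, M2 and M4 held 64, 52 and 39 cells of 1 week and 4, 1 and 0 of 16 weeks. M3, M5 and M7 held 1, 0 and 0 of 1 week and 47, 29 and 12 of 16 weeks. Age and mural sub-cluster cannot be told apart.

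In endothelial cells 4 of 5 passed, against 10.7%, with Ccl19 at 21.1 and 133, Ccl11 at 10.0 and 48 (from 10 UMIs at 1 week), Ccl25 at 270 and 73.6 and Ccl21a at 144 and 662. The Ccl19 difference of 2.66 was 1.54 without replicate 2 of 16 weeks and 3.30 without replicate 1 of 1 week, and 1 cell gave 137 of the 275 UMIs at 16 weeks. Sub-cluster E0 gave 197 of the 275. E0, E2, E3 and E4 held 0, 0, 1 and 0 cells of 1 week, and E5 and E6 held 1 and 3 of 16 weeks. Age and endothelial sub-cluster thus cannot be told apart. The Ccl21a difference of 2.19 was 2.82 without replicate 2 of 1 week. The Ccl11 difference of 2.26 was 3.30 when thinned and 2.91 with doublets kept. Ccl25 was thus higher at 1 week and Ccl21a at 16 weeks in all 3 non-epithelial classes, with Ccl21a at 491 to 662 in these classes at 16 weeks. Their libraries differed in the same way in the cells that make these genes, since cTEC were 1277 at 1 week and 107 at 16 weeks, and intertypical TEC 24 and 1735. The part of free RNA in these differences was not tested.

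In intertypical TEC 3 of 7 members passed, against 20.5% of genes. Ccl11 stood at 13.1 and 957 CPM, a log2 difference of 6.19 with a counting interval from 5.15 to 7.51. Ccl19 stood at 1198 and 265, 4.52 times higher at 1 week. Its log2 difference of -2.18 was -1.57 with doublets kept and -2.67 with the chemokine genes kept in the clustering. It was -2.49 with the clusters led by another class kept. Ccl20 rested on 1 UMI at 1 week and 266 at 16 weeks, a log2 ratio of 3.32 with an interval from 0.83 to 8.63. Thinned to 2000 UMIs per cell it turned to -0.97. Without replicate 1 of 16 weeks 2 members passed the rule in place of 3. Ccl21a was 1.32 times higher at 1 week. The 24 cells at 1 week and the 1735 at 16 weeks came mostly from different sub-clusters, which cannot be told apart from age here.

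Within classes the sub-clusters were not alike. The 4 cTEC sub-clusters ranged from 1525 to 8134 CPM of Ccl25. T5, led by Isg20, Tbata and Cstb, held 8878 and 7226 in the wells at 1 week, and T4, led by Fabp5 and Hes6, 1666 and 1426. Cxcl12 ranged less, from 721 to 1319. Ackr4, an atypical receptor that takes up CCL25, CCL21 and CCL19, stood at 58.0 in T5 and 244 in T4. Its highest level in any sub-cluster was 421, outside cTEC, in T3. The 397 cells of T3 were intertypical TEC by their markers but were set aside from the classes.

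Among intertypical TEC, T6, led by Gpx3, Acta2 and Krt14, held 20894 CPM of Ccl21a and 1805 of Ccl11. Its 16-week wells held 21744 and 20576 of Ccl21a and 1501 and 1965 of Ccl11. T0, the largest with 995 cells, held 5602 and 553. T8, led by Igfbp5 and Krt5, held 10177 of Ccl21a, 218 of Ccl11 and 973.5 of Ccl25, the chemokine that led in cTEC. T3, set aside from this class, held 787 of Ccl21a and 528 of Cxcl12. T21, the sub-cluster of most 1-week cells, held 19445 of Ccl21a and 894 of Ccl19. A further 2 sub-clusters mostly of 1-week TEC that met no class's markers, T20 and T19, held 10752 and 3386 of Ccl21a and 222 and 497 of Ccl19.

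In fibroblasts Cxcl14 was uneven. F4 and F1, both with Crispld2 among their leading genes, held 1047 and 769 CPM, and the other 8 sub-clusters 4.80 to 111. Ccl11 was highest in the same F1 and F4, at 1216 and 1115, and lowest in F7 at 206. Ccl19 was highest in F0, led by Gadd45g and Apoe, at 926, with 1098 and 851 in its wells. F6 and F7, the sub-clusters of the 1-week fibroblasts, were led by H19 and Mest or Mfap4, and held 6.30 and 4.80 of Cxcl14. Cells of 1 week and 16 weeks shared no fibroblast sub-cluster kept in the class, so that age and sub-cluster cannot be told apart. These sub-clusters were found with no correction over library.

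Endothelial sub-clusters differed in Cxcl12 from 383 to 3183 CPM. E2, led by the capillary genes Lpl, Cd36 and Gpihbp1, held 3676 and 3055 in its wells, and E0, led by Lrg1, Selp and Vwf, genes of veins, held 364 and 393. E0 had the highest endothelial Ccl19 level, 228, but at 68.4 and 304 in its wells, and 137 of its 197 UMIs came from 1 cell. E6, a 1-week sub-cluster led by Eln and Cytl1, held 4076 and 950 of Cxcl12, a gap between wells that the 1-week endothelial value shares. Mural sub-clusters held 73.8 to 365 of Cxcl12, apart from M7 (12 cells), which held 559.5 with 1284 of Ccl19 and 1526 of Ccl11. Sub-cluster values are descriptions of clusters found in these cells, without a test.

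**Figure D5:**
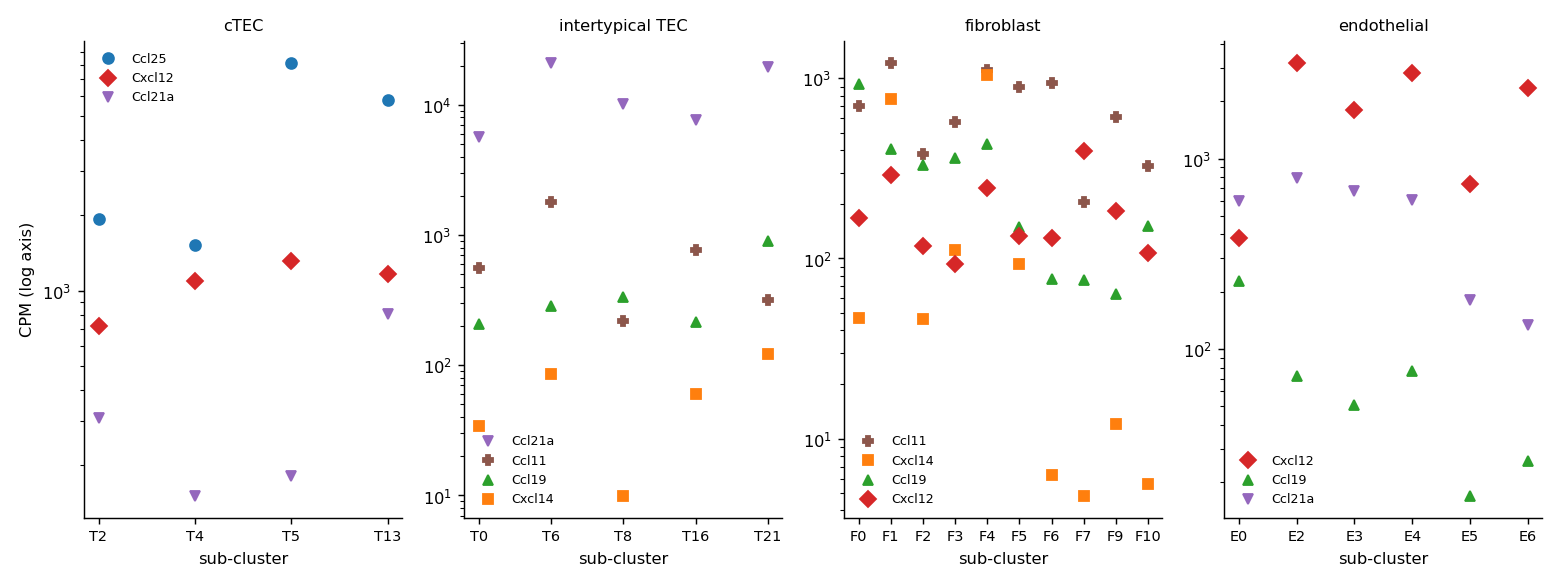
CPM (log axis) of selected chemokines in the sub-clusters of 4 classes, with 1 point per gene and sub-cluster, both ages pooled, for sub-clusters of at least 20 cells. Ccl25 separates T5 and T13 from T2 and T4, Cxcl14 separates F1 and F4, and Cxcl12 separates E0 from E2 and E4.

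The rarer mature medullary cells that resemble peripheral tissues (mimetic cells) are described for classes of at least 20 cells, a number reached at 16 weeks and not at 1 week, so that their values are those of 1 pool. Ciliated-like cells (8 at 16 weeks and 1 at 1 week) were too few. Microfold-like cells (27 cells), which carry genes of the antigen-sampling cells of gut, held 4691 CPM of Ccl20 (807 and 5192 in the wells, from 6 and 21 cells) and 399 of Ccl22 (0 and 451). Of the 27 cells, 17 held a Ccl20 UMI, while 129 of the 130 Ccl22 UMIs came from 1 cell. Keratinocyte-like cells (24 cells) held 963 of Ccl20 (194 and 1030 in the wells, from 3 and 21 cells), 979 of Ccl25 and 64.6 of Xcl1 (0 and 70.2). A single cell dominated each of these values, with 351 of 373 UMIs for Ccl20, 346 of 379 for Ccl25 and 25 of 25 for Xcl1. Enterocyte- or hepatocyte-like cells (30 cells) held 1021 of Ccl20, while tuft-like mTEC (124 cells) held 29.6 and neuroendocrine-like cells (21 cells) 13.9. Mature mTEC outside these classes also divided. T15, led by Cd52 and Nos2, held 245 of Ccl22 with 37.7 and 223 in its 16-week wells, and T9, led by Srgn and S100a8, held 27.8 of Xcl1, where 104 of 112 UMIs came from 1 cell.

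The rest of the chemokine system was read from fixed lists of 32 other chemokines (20 tested) and 23 receptors (12 tested). Against medullary TEC, edgeR called 0 of the 20 other chemokines tested higher in cTEC and 10 lower, DESeq2 called 0 higher and 11 lower, and 0 higher and 11 lower had an unadjusted edgeR p under 0.05. All genes were called at 24.7% in this contrast. The median over the 20 was -1.54, against 0.06 over all genes. Those called lower included Ccl8 (-3.94 ± 0.56, adjusted p = 0.00127), Cxcl3 (-4.09 ± 0.73, adjusted p = 0.00338), Cxcl9 (-3.05 ± 0.63, adjusted p = 0.00585), Cxcl2 (-2.41 ± 0.43, adjusted p = 0.00295), Ccl5 (-2.57 ± 0.61, adjusted p = 0.0107) and Ccl27a (-1.26 ± 0.25, adjusted p = 0.00453). Cxcl10, an interferon-induced ligand of CXCR3, was not called and stood at 2268 and 836 CPM in cTEC (1 week and 16 weeks), 2982 and 359 in intertypical TEC and 986 and 912 in mature mTEC.

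Within the medulla, edgeR called 5 of the 20 other chemokines higher in mature mTEC and 0 lower, against 6 and 0 by DESeq2 and 11 and 1 at an unadjusted edgeR p under 0.05. They were Cxcl3 (4.95 ± 0.71, adjusted p = 0.00140), Cxcl2 (3.28 ± 0.49, adjusted p = 0.00140), Ccl9 (2.36 ± 0.70, adjusted p = 0.0337), Ccl5 (2.31 ± 0.66, adjusted p = 0.0279) and Ccl27a (2.04 ± 0.29, adjusted p = 0.00116). Of 12 receptors tested, edgeR called 5 higher in mature mTEC and 0 lower, against 5 and 0 by DESeq2 and 7 and 0 at an unadjusted edgeR p under 0.05, with 19.5% of all genes called in either direction. Ccr4 (5.31 ± 0.86, adjusted p = 0.00217), Ccr6 (4.90 ± 0.99, adjusted p = 0.00572) and Ccr7 (4.83 ± 0.98, adjusted p = 0.00587) are the receptors of CCL22 and CCL17, of CCL20 and of CCL21 and CCL19. Their levels in mature mTEC were 40.9 and 32.1, 16.0 and 20.8, and 85.4 and 41.5 CPM at 1 week and 16 weeks. Ptprc and 9 other haematopoietic markers summed to 506 and 564 in mature mTEC and 26.2 and 75.7 in intertypical TEC, and the part of attached haematopoietic cells in the receptor values was not tested.

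Ackr4 was the receptor called higher in cTEC (3.36 ± 0.77, adjusted p = 0.00903), at 111 and 276 CPM at 1 week and 16 weeks. Of the 12 receptors 5 were called lower in cTEC (Ccr4, Ccr6, Ccr7, Cx3cr1 and Ackr3), against 24.7% of all genes called in either direction. In mesenchyme against TEC, 4 other chemokines were higher and 9 lower of 20, and of 12 receptors 3 were higher and 2 lower, against 37.4% of all genes called in either direction. Cxcl1 (2.69 ± 0.24, adjusted p = 2e-06), Ccl2 (2.57 ± 0.52, adjusted p = 0.00182) and Ccl7 (1.29 ± 0.42, adjusted p = 0.0285), ligands for neutrophils and monocytes, were among those higher. Ackr3, a scavenger of CXCL12, was higher in mesenchyme (3.65 ± 0.39, adjusted p = 1.4e-05), at 41.2 and 48.9 in fibroblasts and 46.3 and 89.1 in mural cells. In endothelial cells against mesenchyme Cx3cl1 was higher (1.83 ± 0.50, adjusted p = 0.0251) and 4 other chemokines lower of 20, against 15.4% of all genes called in either direction. Ackr1, the chemokine-binding receptor of venules, was the receptor called (4.60 ± 0.48, adjusted p = 4e-05), with 37.1 and 246 in endothelial cells.

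The genes whose levels ran most like each member were ranked by Pearson's r of log2(CPM + 1) over 16 sums of pool and class among 10207 genes, as a description. For Ccl25 these were Tbata (0.97), Cd83 (0.96) and Fgf14 (0.95), of which Tbata and Cd83 are cTEC markers used to name that class. For Ccl21a they were Krt14 (0.94), Scx (0.92) and Krt5 (0.92), with both keratins among the intertypical markers. Cxcl12 ran with Gclm (0.92), Kbtbd2 (0.89) and Higd2a (0.89). Ccl19 ran with ENSMUSG00000118633 (0.94, no symbol in the annotation used), Ptgs2 (0.89) and Ctsc (0.89).

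Of the mature mTEC chemokines, Ccl22 ran with Mia (0.96), Slpi (0.94) and Klk1b11 (0.92), Ccl20 with Saa3 (0.94), S100g (0.94) and Abca7 (0.94), Ccl17 with Fcer1g (0.84), Tbc1d10b (0.82) and Napsa (0.82), and Xcl1 with Tmem19 (0.89), Wfdc21 (0.89) and Ttll5 (0.88). Ccl11 ran with the mesenchymal genes Osr2 (0.92), Scn7a (0.92) and Gsn (0.91), and Cxcl14 with Gfra2 (0.88), Ifi204 (0.84) and Serpina3n (0.84). The sums share pools, libraries and depth. They include the 16-week haematopoietic cells, whose Ccl17 level of 157 was above that of mature mTEC, with 71 of 72 UMIs from 1 cell.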

How the data were processed

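Raw counts of UMIs per cell and gene, and of antibody and lectin tags per cell, were used as the authors deposited them. The authors had aligned mRNA reads to mm10 with STARsolo 2.7.9a (tool and build from the submitters' processing notes) and kept cells with at least 2000 UMIs. The labels name the 3′ v2 kit, while the study's methods name v3. Up to 10 alignments per read were allowed, and the settings the methods do not list were left at their defaults, so reads shared by the Ccl21 copies may have been dropped or assigned to 1 copy. The 9953 cells were assigned to their 4 libraries by the ending of the cell name, and each age is 1 pool.

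With scanpy 1.11.5, the 253 cells (2.54%) with the highest doublet scores were left out. The number was set from a usual doublet rate and the cells kept in each library, since the automatic limit marked 14. It was not set from the cells loaded. By the study's methods more cells were loaded than were kept, so doublets may remain among the cells used. Cells were clustered on 2000 variable genes, 30 components and 10 neighbours (igraph 0.11.9), with 65 chemokine and receptor genes left out of clustering and naming. Mutual neighbours were matched over library and depth for TEC only. The first clustering of all cells and the sub-clusters of fibroblasts, endothelial cells and mural cells had no such correction. Clusters were named from marker lists. Shallow clusters (median under 3000 UMIs) and clusters with more markers of another class than of their own among their 10 leading genes were set aside from the classes. The doublet rate, the naming thresholds and these exclusions were chosen after the clusters were seen. The members and all lists were chosen with earlier results of these data known.

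Class sums of at least 20 cells per pool were tested with edgeR 4.0.16 (R 4.3.3; TMM, low counts filtered, quasi-likelihood test, two-sided, Benjamini-Hochberg adjustment over all genes), with the pool as block. DESeq2 1.42.0 was an alternative, and the fit was tested on simulated data. Genes named were the 10 members, listed chemokines and receptors with at least 200 UMIs, of which the largest or called ones are described, and the 3 genes most correlated with each member. Sub-clusters and mimetic cells were described after their values were seen. Intervals (95%, exact) cover counting error only. The alternatives covered normalization, filtering, blocking, clustering, doublets, thinning to 2000 UMIs and leaving out each library. Levels of mural cells without sub-cluster M7 and the share of UMIs in single cells were added after seeing the data.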

Additional observations from a re-analysis of the deposited data

Results flagged for a closer look

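Some differences between classes ran in opposite directions at the 2 ages in both wells of each, and these changes with age were not tested. Ccl19 in mature mTEC against intertypical TEC was lower in the 1-week wells (log2 differences of -1.64 and -0.75) and higher in the 16-week wells (1.83 and 1.55), a change of 2.88. The 1-week intertypical wells held 11 and 13 cells, 19 of the 24 from sub-cluster T21. T20 and T19, which met no class's markers, held 244 and 228, and 307 and 702 CPM of Ccl19 in their 1-week wells. Ccl19 in mesenchyme against TEC stood at -1.57 and -0.82 at 1 week and at 0.84 and 0.05 at 16 weeks, a change of 1.64. Without the 12 cells of the mural sub-cluster M7 the 16-week wells stood at 0.45 and -0.51, so that the wells no longer had 1 direction. Cxcl14 in the same contrast stood at -0.74 and -2.05, and at 0.43 and 1.87, a change of 2.55. In endothelium against mesenchyme, Cxcl14 stood at 0.52 and 0.80 at 1 week and at -1.64 and -2.28 at 16 weeks, a change of -2.62, and Ccl20 at -0.76 and -0.26, and at 1.06 and 0.49, a change of 1.28, with 40 and 43 UMIs behind the 1-week values.

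Classes outside the contrasts also held chemokines at 16 weeks above their level in every class compared. Ccl20 reached 4691 CPM in microfold-like cells, 1021 in enterocyte- or hepatocyte-like cells (686 and 1113 in the wells, from 8 and 22 cells) and 963 in keratinocyte-like cells (194 and 1030, from 3 and 21 cells), where 1 cell gave 351 of 373 UMIs. The next 3 values are those of single cells more than of a class. Ccl22 reached 399 in microfold-like cells, with 0 and 451 in the wells and 129 of 130 UMIs in 1 of 27 cells. Xcl1 reached 64.6 in keratinocyte-like cells, with 0 and 70.2 in the wells and 25 of 25 UMIs in 1 of 24 cells. Ccl17 reached 157 in the haematopoietic cells left after depletion, with 0 in the well of 17 cells and 259 in that of 33 cells, and with 71 of 72 UMIs in 1 cell.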

How the results depend on the processing

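The results rest on 2 pools, on 24 intertypical TEC at 1 week and on classes rebuilt by clustering. The 2 wells of an age share a pool, and the numbers 1 and 2 of the wells pair nothing across ages, so the blocks were the pool or the library. Over the alternatives, 7 to 10 of the 10 members kept their leading class. With no replicate block, calls over all genes went from 3846 to 2300 (cTEC against medullary TEC) and from 3037 to 1435 (mature mTEC against intertypical TEC), and calls among members from 4 to 2 within the medulla and from 2 to 1 in endothelium against mesenchyme. With sums per library and a replicate block, within the medulla 4910 genes and 7 members were called, and 3761 genes in place of 2403 in the endothelial contrast, where wells of 1 pool stand as separate samples. With no low-count filter, 4692 genes and 9 members were called within the medulla and 4 members in the endothelial contrast. Thinned to 2000 UMIs per cell, 1145, 1216, 2993 (in place of 5820, mesenchyme against TEC) and 1285 genes were called in the 4 contrasts, fewer counts being tested, and 1 member in place of 3 passed the age rule in cTEC. The UEA1 split called 7630 genes. With the chemokine genes kept in the clustering, 6 members in place of 3 passed the age rule in mature mTEC. Leaving out 1 library at a time gave 2152 to 3487 genes in the cTEC contrast (2152 without replicate 2 of 16 weeks), 1937 to 2977 within the medulla (1937 without replicate 1 of 1 week) and 3 to 5 members by the age rule in mature mTEC (5 without replicate 1 of 1 week).

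Among differences not called in the main comparison, signs turned for Ccl19 within the medulla (-0.55; 0.27 with doublets kept, 2.23 with 20 neighbours, 2.09 with shallow clusters kept and an adjusted p of 0.0464, 0.18 thinned, -0.59 to 2.19 leaving out a library, with an adjusted p of 0.0183 at 2.19 without replicate 2 of 1 week) and in mesenchyme against TEC (-0.44; 0.46, 0.43 and 0.012 with 20 neighbours, shallow clusters kept and thinned, -0.56 to 0.53 leaving out a library). They also turned for Cxcl14 in mesenchyme against TEC (0.39; -0.17 to 1.22 leaving out a library), and in the endothelial contrast for Ccl25 (-0.17; 0.33 with doublets kept, 0.058 with 20 neighbours, -0.41 to 0.15 leaving out a library) and Ccl21a (0.06; -0.0029 to 0.20). The age difference of Ccl20 in intertypical TEC, from 1 UMI at 1 week, turned to -0.97 when thinned. With 20 neighbours, with shallow clusters kept and without either 1-week library, the 1-week intertypical sum fell under 20 cells. Of the values for single members, 699 kept direction and kept their call or, where there was no test, moved by less than the spread between wells, 33 lost a call, 43 gained one, 19 moved and 17 turned. Keeping the clusters led by another class and leaving out the mural sub-cluster M7 were chosen after seeing the data. The cause of these changes was not tested.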
